A study of Mus musculus with 8 samples.

Results

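The cell cycle and DNA replication genes followed here are 51 genes of S phase and mitosis, picked by symbol from the 20207 genes listed for each RNA-sequencing library. All 51 were found. Cdk1 and Cdc45 stood under their older names Cdc2a and Cdc45l, and the other 49 under the names used here. All 51 also passed the filter on low values, a total above 1 RPKM over the libraries, which 12561 genes passed. RPKM are read counts divided by transcript length and by library size.

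Dividing blood cells switch these genes on in sequence. In late G1, E2F transcription factors and cyclin E open the way to S phase, in which the licensed MCM helicases unwind DNA and polymerases copy it around the PCNA clamp. In G2 and mitosis, cyclin A2 and B-type cyclins with Cdk1, the Polo and Aurora kinases, the spindle checkpoint and the kinesins separate the chromosomes. Long-term haematopoietic stem cells (HSCs) are known as largely quiescent cells, and committed progenitors as rapidly dividing ones.

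By the study's account, the 8 libraries came from bone marrow cells of Tal1-tTA x TRE-BCR-ABL1 mice and of healthy Tal1-tTA littermates. The former are a tetracycline-controlled model of chronic myelogenous leukaemia (CML). The transactivator tTA, driven by Tal1 regulatory sequence in both kinds of mice, turns on the BCR-ABL1 oncogene in stem and progenitor cells once doxycycline (DOX) is withdrawn. LT stem cells were sorted as CD150+CD48-CD135- cells of the KLS+ (cKit+, Lineage-, Sca-1+) gate, ST stem cells as their CD150- counterparts, and KLS- progenitors as cKit+, Lineage- and Sca-1- cells. Normal cells gave LT-HSC 1 and LT-HSC 2, ST-HSC and normal KLS-, and CML cells gave LT-CML 1 and LT-CML 2, ST-CML and CML-KLS-. The labels give an age of 6 months for LT-HSC 2, 2 months for the other normal libraries and no age for the CML libraries. They give the strain C57BL/6, whereas the study's methods describe young adult mice on an FVB/N background for this model. The study also used healthy C57BL/6 mice of 2 ages for metabolite measurements. Which mice gave the normal libraries cannot be settled here, so strain, genotype and age may differ along with disease. Only LT cells were sequenced in 2 libraries per group. Whether the libraries came from separate mice or pools is not given in the sources used here, so p-values measure the spread between these libraries, which may be technical.

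Depth was an estimated 17.8 to 23.9 M reads per library, and the member with the fewest reads had an estimated 29.9 in its lowest library, a counting error of 18.3%. The sorting markers Slamf1 (CD150) and Ly6a (Sca-1) followed the gates and Kit was at 78.4 RPKM or more in every library, whereas Flt3 (CD135) stood at 61.6 and 71.6 RPKM in both ST libraries against 2.52 to 19.2 in LT libraries, although both were gated CD135-. Cd48 also went against the gate, at 41.8 and 45.2 RPKM in ST against 5.17 to 29.5 in LT libraries, although both were gated CD48-. The summed level of 10 neutrophil and monocyte genes was 4165 RPKM in LT-HSC 2 and 3831 in LT-CML 2. It was 602 in LT-HSC 1 and 321 in LT-CML 1, so the replicates of each LT group stood apart. The largest of the 10 were S100a8 (1802 RPKM) and S100a9 (855.7) in LT-HSC 2, but Mpo (1291) and Elane (1120) in LT-CML 2. B cell markers summed to at most 9.43 and T cell markers to at most 0.621 RPKM in any library, and Hba-a1 was listed at 0 in all 8.

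Promoter sequences of 40 members were found in a RefSeq table of GRCm38.p6, as windows from 250 bases before to 50 after the start of the gene. Ccna2, Ccne2, Cdc25c, Aurkb, Kif20a, Tpx2, Mcm4, Gins1, Gins2, Pole and Foxm1 were not among them. Stretches of 7 windows are shown because replication genes and mitosis genes, groups set here by role, are textbook targets of different promoter elements. The E2F element was searched as TTTCCCGC, TTTCGCGC, TTTGCCGC or TTTGGCGC, the cell cycle homology region (CHR) as TTTGAA, and the CCAAT box as CCAAT, each on both strands. E2F matches may overlap each other. The stretches run 5′ to 3′ along the gene with these matches in capitals. Mcm5 (chr8:75109349-75109508, plus strand), Mcm6 (chr1:128359706-128359825, minus strand) and Cdc6 (chr11:98908001-98908060, plus strand) are licensing genes. Cdk1 (chr10:69352913-69353052, minus strand), Cdc20 (chr4:118437344-118437408, minus strand), Kif11 (chr19:37376322-37376381, plus strand) and Mki67 (chr7:135716460-135716574, minus strand) belong to mitosis or mark proliferation.
Mcm5: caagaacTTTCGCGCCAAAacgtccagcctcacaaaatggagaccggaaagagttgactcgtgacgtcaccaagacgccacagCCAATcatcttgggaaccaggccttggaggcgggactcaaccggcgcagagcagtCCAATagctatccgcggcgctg
Mcm6: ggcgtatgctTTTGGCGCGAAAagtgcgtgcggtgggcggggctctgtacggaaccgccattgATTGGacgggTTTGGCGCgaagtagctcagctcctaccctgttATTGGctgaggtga
Cdc6: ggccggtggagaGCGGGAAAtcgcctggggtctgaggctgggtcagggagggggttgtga
Cdk1: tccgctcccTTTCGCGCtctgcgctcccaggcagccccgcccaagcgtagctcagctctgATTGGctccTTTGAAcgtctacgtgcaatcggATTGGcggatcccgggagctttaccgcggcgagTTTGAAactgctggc
Cdc20: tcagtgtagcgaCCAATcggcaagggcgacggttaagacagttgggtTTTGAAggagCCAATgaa
Kif11: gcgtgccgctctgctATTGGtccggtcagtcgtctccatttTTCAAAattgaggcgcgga
Mki67: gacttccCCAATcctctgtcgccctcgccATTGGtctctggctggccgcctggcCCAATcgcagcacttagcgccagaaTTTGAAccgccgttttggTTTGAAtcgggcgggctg

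An E2F match lay in the windows of 9 of 17 replication genes (Mcm3, Mcm5, Mcm6, Mcm7, Cdc6, Cdt1, Pola1, Pold1 and Lig1) and of 1 of 17 mitosis genes, Cdk1. Of all 27025 genes in the table, 2.605% held one in any of their windows. CHR matches showed the opposite split, with 3 of 17 replication genes (Mcm2, Cdc45 and Fen1) and 11 of 17 mitosis genes, against 20.2% of all genes in the table. Both proliferation markers, Mki67 and Top2a, also held one. CCAAT boxes were present for 27 of the 40 members and for 41.1% of all genes in the table. In Mki67 a pair of CHR matches stood 116 and 98 bases before the start, and in Cdk1 an E2F match 131 bases before it preceded CHR matches 71 and 15 bases before it. A match is a run of letters and not a measured binding site. In the comparison of ST with LT cells below, mitosis genes had a median log2 fold change of -1.23 with a CHR match and -1.28 without. Replication genes were at -0.43 with an E2F match and -0.63 without. A link between matches and levels was not tested.

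The mean levels over all 51 members formed an order of populations, with ST cells lowest, LT cells between and KLS- progenitors highest. The mean log2(RPKM + 1) over the 51 members was 3.48 in ST-HSC and 3.08 in ST-CML. It was 4.45 and 3.95 in LT-HSC 1 and 2 and 4.14 and 4.28 in LT-CML 1 and 2, and it reached 4.96 in normal KLS- and 4.98 in CML-KLS-. For the 21 replication genes alone ST and LT cells overlapped, with ST-HSC at 4.65 and LT-HSC 2 at 4.64. Over all 12561 genes the same mean lay between 2.76 and 2.85 in every library. In bulk libraries, a smaller share of dividing cells and less of these transcripts per dividing cell cannot be told apart.

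By single genes, the highest of the 8 libraries was CML-KLS- for 23 members, normal KLS- for 19, LT-HSC 1 for 8 and LT-HSC 2 for 1. The shares of all genes tested that were highest in these libraries were 19.6%, 15.6%, 8.53% and 17.4%. The lowest was ST-CML for 39 members, ST-HSC for 11 and LT-HSC 2 for 1, against 16.4%, 6.26% and 16.8% of all genes tested. In 26 of 51 members all ST libraries lay below all LT libraries and those below all KLS- libraries, against 3% of all genes tested. These 26 comprised 9 replication genes, 14 mitosis genes, Ccne1, Ccne2 and Top2a.

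**Figure D1:**
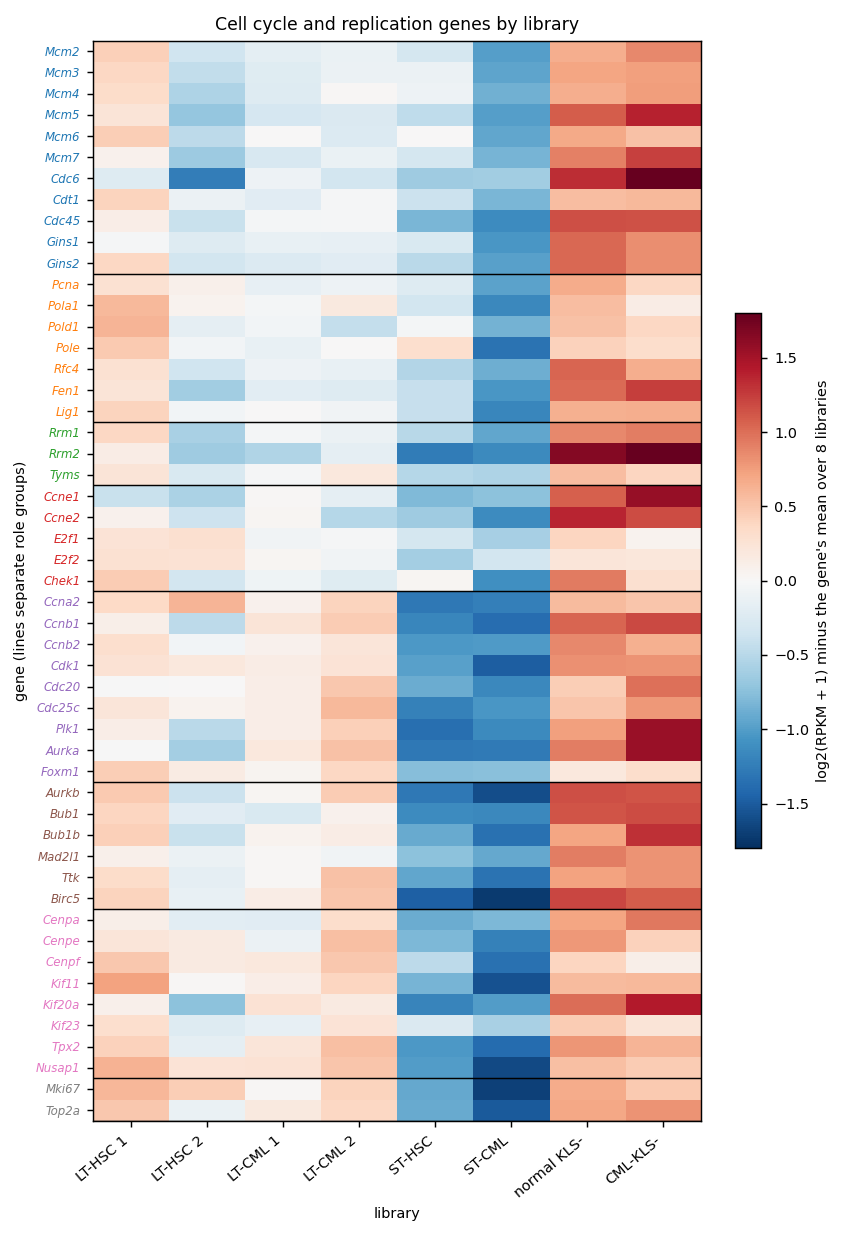
Level of each of the 51 members (rows, grouped by role) in each of the 8 libraries (columns), as log2(RPKM + 1) minus the gene's mean over the libraries, with red above and blue below that mean. The ST columns are blue and the KLS- columns red for most genes, and LT columns lie between.

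**Figure D2:**
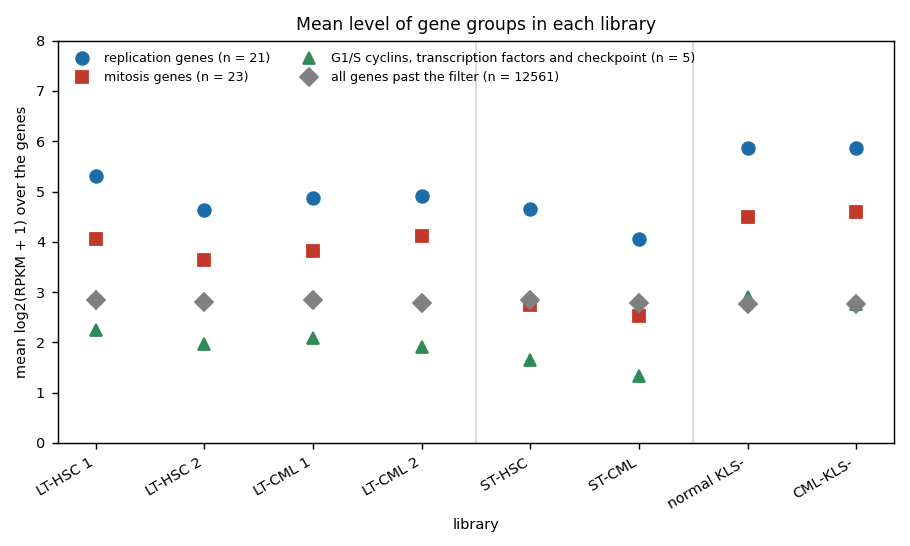
Mean log2(RPKM + 1) per library for 21 replication genes, 23 mitosis genes, 5 G1/S genes and all 12561 genes past the filter; each point is 1 library, and vertical lines separate LT, ST and KLS- cells. The mitosis genes drop below the all-gene mean in both ST libraries, at 2.75 and 2.53, from 3.63 to 4.12 in LT cells.

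Proliferation markers showed the drop in ST cells plainly. Mki67, the Ki-67 antigen of cycling cells, lies on chromosome 7 from 142881471 to 142908062 of mm9. It measured 28.4 and 25.3 RPKM in LT-HSC 1 and 2, 18.7 and 24.6 in LT-CML 1 and 2, 9.20 in ST-HSC, 5.04 in ST-CML, 29.9 in normal KLS- and 25.8 in CML-KLS-. ST cells were thus far below every LT library, while the KLS- and LT ranges overlapped. Top2a, the topoisomerase that untangles sister chromatids, was at 86.6 and 56.8 RPKM in LT-HSC 1 and 2, 69.9 and 80.7 in LT-CML 1 and 2, 32.5 in ST-HSC, 21.0 in ST-CML, 101 in normal KLS- and 108.5 in CML-KLS-. For this gene the populations did not overlap.

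ST and LT stem cells, which differ in the gate only by CD150, were compared with disease as a covariate, 2 libraries against 4. Of the 51 members, 29 were lower in ST cells and 0 higher at an adjusted p under 0.05 (limma, Benjamini-Hochberg over 12561 genes), against 2.74% of all genes tested called lower and 2.13% called higher. The 29 held 22 of 23 mitosis genes, 4 of 21 replication genes (Cdc45, Pola1, Lig1 and Pcna), E2f1, Mki67 and Top2a. The median log2 fold change was -1.30 for mitosis genes and -0.59 for replication genes, beside -0.0067 for all genes. Fold changes here are differences of log2(RPKM + 1), which understate the change of low genes.

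The mitosis genes fell in every role group. Among G2/M cyclins, kinases and activators, 9 of 9 were lower, with a median of -1.30. Ccna2, cyclin A2, measured 7.19 and 8.68 RPKM in LT-HSC 1 and 2, 5.71 and 7.41 in LT-CML 1 and 2, 1.61 and 1.72 in ST-HSC and ST-CML, and 8.43 and 8.01 in normal KLS- and CML-KLS-. Its ST level differed from LT by -1.62 ± 0.16 (SE, adjusted p = 0.00199, limma). Ccnb1, the cyclin B1 partner of Cdk1, was at 47.2 and 31.4 RPKM in LT-HSC 1 and 2, 51.4 and 60.3 in LT-CML 1 and 2, 18.8 in ST-HSC, 16.4 in ST-CML, and 91.5 and 101.6 in normal KLS- and CML-KLS-. Its relative Ccnb2 stood at 47.9 and 37.4 RPKM in LT-HSC 1 and 2, 41.0 and 45.1 in LT-CML 1 and 2, 18.3 and 18.6 in ST-HSC and ST-CML, and 71.0 and 60.8 in normal KLS- and CML-KLS-. Both B-type cyclins separated the populations without overlap. Foxm1, the transcription factor of G2/M genes, was low throughout, at 2.30 to 3.33 RPKM in LT cells and 0.865 and 0.885 in ST cells.

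In the spindle checkpoint and chromosomal passenger group, 6 of 6 genes were lower. Birc5, survivin of the passenger complex, lies on chromosome 11 from 117710565 to 117717069 of mm9. It measured 65.8 and 45.4 RPKM in LT-HSC 1 and 2, 54.9 and 70.5 in LT-CML 1 and 2, 17.3 in ST-HSC, 14.3 in ST-CML, and 116 and 107 in normal KLS- and CML-KLS-. Its difference of -1.83 ± 0.19 (adjusted p = 0.00224, limma) was the largest of the 51 members. Aurkb, the kinase of the same complex, was at 26.4 and 14.1 RPKM in LT-HSC 1 and 2, 19.2 and 26.2 in LT-CML 1 and 2, 7.12 and 5.54 in ST-HSC and ST-CML, and 43.3 and 42.3 in normal KLS- and CML-KLS- (-1.58 ± 0.25, adjusted p = 0.00913, limma). Mad2l1, a checkpoint protein that restrains Cdc20, fell less, from 34.1 and 29.6 RPKM in LT-HSC 1 and 2 and 32.6 and 30.6 in LT-CML 1 and 2 to 18.7 and 16.4 in ST-HSC and ST-CML. It was at 61.4 and 56.9 RPKM in normal KLS- and CML-KLS-. Every ST value of these genes lay below every LT value.

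Kinetochore, motor and spindle genes were lower in 7 of 8 cases. Nusap1, a microtubule binder of the spindle, was at 33.9 and 25.9 RPKM in LT-HSC 1 and 2, 26.1 and 31.1 in LT-CML 1 and 2, 10.3 in ST-HSC, 6.33 in ST-CML, and 32.0 and 30.1 in normal KLS- and CML-KLS-. Its difference of ST from LT was -1.72 ± 0.18 (adjusted p = 0.00224, limma), whereas KLS- and LT cells overlapped. Cenpa, the histone H3 variant of centromeres, was at 19.0 and 15.4 RPKM in LT-HSC 1 and 2, 15.3 and 22.3 in LT-CML 1 and 2, 9.03 and 9.71 in ST-HSC and ST-CML, and 29.7 and 35.1 in normal KLS- and CML-KLS-. The exception was Kif23, a kinesin of the midbody, at 12.3 to 18.3 RPKM in LT and 12.1 and 9.47 in ST cells (-0.46 ± 0.19, adjusted p = 0.223, limma).

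Replication genes differed less between ST and LT cells, and 17 of 21 did not pass the test. All 21 had a negative log2 fold change, from -0.94 (Pola1, a subunit of the priming polymerase) to -0.16 (Cdc6, a loader of MCM helicases). Mcm7 was at 91.9 and 55.4 RPKM in LT-HSC 1 and 2, 71.2 and 80.3 in LT-CML 1 and 2, 70.0 in ST-HSC, 48.5 in ST-CML, and 165 and 206.5 in normal KLS- and CML-KLS-. Mcm3 was at 111.5 and 63.1 RPKM in LT-HSC 1 and 2, 73.8 and 79.6 in LT-CML 1 and 2, 80.0 in ST-HSC, 44.2 in ST-CML, and 142 and 144 in normal KLS- and CML-KLS-. For both helicase subunits ST-HSC lay within the range of the LT libraries and only ST-CML below it.

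Pcna, the sliding clamp, was at 182 and 160.2 RPKM in LT-HSC 1 and 2, 136 and 141 in LT-CML 1 and 2, 127 in ST-HSC, 76.2 in ST-CML, and 239 and 194 in normal KLS- and CML-KLS-. Its ST libraries lay below all LT libraries (-0.64 ± 0.14, adjusted p = 0.0343, limma). Rfc4, a subunit of the clamp loader, was at 64.8 and 41.5 RPKM in LT-HSC 1 and 2, 49.6 and 48.4 in LT-CML 1 and 2, 36.7 in ST-HSC, 28.5 in ST-CML, and 110.6 and 84.7 in normal KLS- and CML-KLS-. It had the same order but missed the threshold (-0.63 ± 0.18, adjusted p = 0.0940, limma).

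Counted without a test, both ST libraries lay below all 4 LT libraries in 39 of 51 members, against 12.9% of all genes tested. This held for 23 of 23 mitosis genes and 10 of 21 replication genes. The 11 replication genes with overlap were Mcm2 to Mcm7, Cdc6, Pold1, Pole, Fen1 and Rrm1, and Chek1 was the only other member with overlap.

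The count of 29 rested on few libraries. It was 5 without ST-CML (Birc5, Ccna2, Cdk1, Mki67 and Nusap1), 14 without ST-HSC and 36 without LT-HSC 2. It was 8 without the filter on low values, 1 in normal cells alone (Ccna2) and 4 in CML cells alone (Birc5, Cdk1, Mki67 and Nusap1). Replication genes were called in 0 cases without LT-HSC 1, LT-CML 1, LT-CML 2, ST-HSC or ST-CML. Megakaryocyte genes moved with the comparison. The sum of Pf4, Itga2b, Gp9 and Vwf was 275 to 469 RPKM in LT and 30.9 and 43.4 in ST libraries, with none of the 4 at 0, and Gata1, a factor of erythroid and megakaryocyte cells, was at 13.0 to 34.9 RPKM in LT and 2.53 and 3.36 in ST libraries. Their part in the members' difference was not tested.

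The related lists moved with the mitosis genes to different degrees. Their median log2 fold changes for ST against LT were -1.07 (mitosis), -0.53 (replication), -0.30 (transcription control) and -0.12 (anaphase-promoting complex). The counts below stand beside 2.74% of all genes tested called lower and 2.13% called higher. In a list of 63 other mitosis genes, 44 were lower in ST cells and 0 higher, with Ube2c, a ubiquitin-conjugating enzyme of the anaphase-promoting complex, at -1.92 ± 0.17 (adjusted p = 0.00109, limma). Of 42 other replication genes 11 were lower and 0 higher. In the list of 18 transcription control genes 3 were lower: E2f8, E2f7 and Mybl2. Of 14 anaphase-promoting complex genes Fbxo5, which encodes the inhibitor Emi1, was the only one called (-1.52 ± 0.19, adjusted p = 0.00377, limma).

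**Figure D3:**
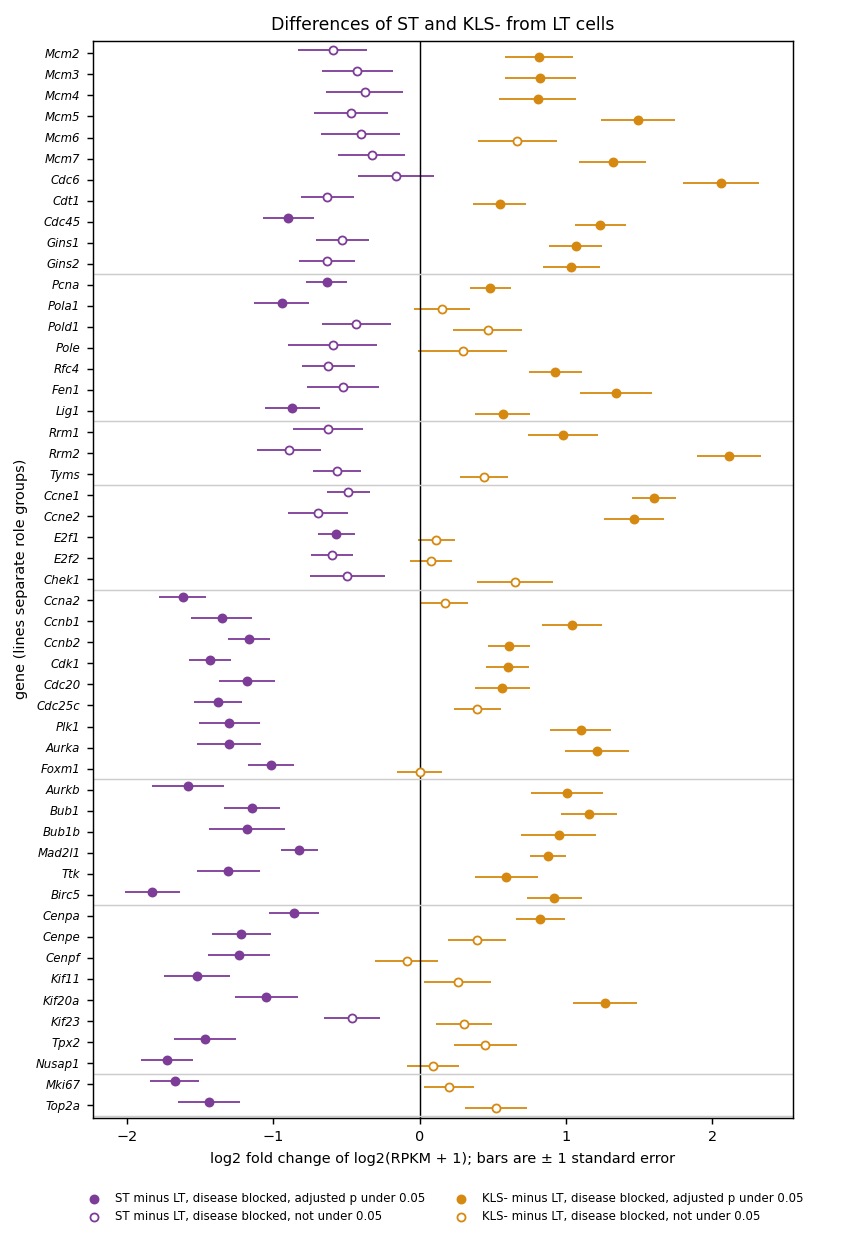
Log2 fold change of each member (rows, grouped by role) for ST minus LT (purple) and KLS- minus LT (orange), with disease as a covariate; bars are ± 1 standard error and filled points have an adjusted p under 0.05. The comparisons share the 4 LT libraries. Mitosis genes lie between -1.83 and -0.46 in ST cells, and Rrm2 and Cdc6 lie furthest right in KLS- cells.

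KLS- progenitors were compared with LT stem cells in the same fit, 2 libraries against 4. Here 32 members were higher and 0 lower, against 20.8% of all genes tested called higher and 25.5% called lower. They comprised 16 of 21 replication genes, 14 of 23 mitosis genes and both E cyclins. The median log2 fold change was 0.83 for replication genes, 0.60 for mitosis genes and 0.67 for all members, beside -0.074 for all genes. That shift of all genes became 0.024 after quantile normalization and -0.149 after scaling to the upper quartile, and the number of members called was 22 and 29 with these scalings.

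Nucleotide supply and origin licensing held the largest differences. Rrm2, the regulated subunit of ribonucleotide reductase, lies on chromosome 12 from 25393106 to 25399011 of mm9. It was at 63.5 and 36.7 RPKM in LT-HSC 1 and 2, 39.6 and 51.4 in LT-CML 1 and 2, 23.7 and 25.7 in ST-HSC and ST-CML, and 184 and 229.6 in normal KLS- and CML-KLS-. The KLS- values were far above all others, and the log2 fold change from LT was 2.11 ± 0.22 (adjusted p = 0.000178, limma). The partner subunit Rrm1 was at 84.5 and 43.0 RPKM in LT-HSC 1 and 2, 63.5 and 60.3 in LT-CML 1 and 2, 45.8 and 33.6 in ST-HSC and ST-CML, and 119 and 124 in normal KLS- and CML-KLS- (0.98 ± 0.24, adjusted p = 0.0104, limma).

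Of the 11 licensing and helicase genes, 10 were higher in KLS- cells, and in all 11 both KLS- libraries lay above all 4 LT libraries. Cdc6 was at 11.8 and 5.34 RPKM in LT-HSC 1 and 2, 13.1 and 10.9 in LT-CML 1 and 2, 8.59 and 8.73 in ST-HSC and ST-CML, and 36.6 and 52.8 in normal KLS- and CML-KLS- (2.06 ± 0.26, adjusted p = 0.000473, limma). Mcm5 was at 58.5 and 30.6 RPKM in LT-HSC 1 and 2, 40.2 and 41.7 in LT-CML 1 and 2, 36.3 and 24.5 in ST-HSC and ST-CML, and 107 and 132 in normal KLS- and CML-KLS- (1.49 ± 0.25, adjusted p = 0.00181, limma). For both genes ST-HSC was within the LT range, so they set KLS- cells apart rather than ST cells. Mcm6 missed the threshold (0.67 ± 0.27, adjusted p = 0.0685, limma).

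Among the G1/S genes the E cyclins stood out. Ccne1 was at 1.31 and 1.05 RPKM in LT-HSC 1 and 2, 2.10 and 1.71 in LT-CML 1 and 2, 0.762 and 0.823 in ST-HSC and ST-CML, and 5.45 and 8.01 in normal KLS- and CML-KLS- (1.60 ± 0.15, adjusted p = 0.000103, limma). Ccne2 was at 5.84 and 4.002 RPKM in LT-HSC 1 and 2, 5.64 and 3.52 in LT-CML 1 and 2, 3.13 and 1.96 in ST-HSC and ST-CML, and 15.7 and 13.7 in normal KLS- and CML-KLS- (1.47 ± 0.20, adjusted p = 0.000754, limma). E2f1 and E2f2, activators of S phase genes, were not called, with log2 fold changes of 0.11 ± 0.13 and 0.08 ± 0.15. Chek1, the kinase of the replication checkpoint, was at 11.5 and 6.24 RPKM in LT-HSC 1 and 2, 7.61 and 6.82 in LT-CML 1 and 2, 8.28 and 3.24 in ST-HSC and ST-CML, and 16.3 and 10.1 in normal KLS- and CML-KLS-. Its LT and KLS- ranges overlapped (0.65 ± 0.26, adjusted p = 0.0653, limma).

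Mitosis genes were divided in this comparison. All 6 checkpoint and passenger genes rose, as did Aurka and Plk1, the kinases of mitotic entry (1.21 ± 0.22 and 1.10 ± 0.21), and Kif20a, a kinesin of cytokinesis (1.27 ± 0.22). Nusap1, Ccna2, Kif11 and Foxm1, which were all lower in ST than in LT cells, lay between 0.00 and 0.26 and were not called. Cenpf, a kinetochore protein, was the only member with a negative value (-0.09 ± 0.21, adjusted p = 0.756, limma), opposite to its role group. Mki67 was at 0.20 ± 0.17 (adjusted p = 0.347, limma), and its direction turned to -0.02 after quantile normalization. Both KLS- libraries lay above all 4 LT libraries in 35 of 51 members, against 25% of all genes tested.

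The count of 32 was 18 without CML-KLS- and 20 without normal KLS-, and 15 in normal cells alone and 13 in CML cells alone. The markers of other cells changed strongly alongside. The 10 neutrophil and monocyte genes summed to 13091 and 21251 RPKM in normal KLS- and CML-KLS-, mostly Mpo and Elane, against 321 to 4165 in LT libraries. Ltf and Ngp went the other way, with Ngp at 7.06 and 20.9 RPKM in KLS- against 54.2 to 688 in LT libraries. Camp, S100a8 and S100a9 lay below all LT libraries in normal KLS- and within the LT range in CML-KLS-. The 7 erythroid genes summed to 864 and 1872 RPKM, mostly Car1, against 39.0 to 106 in LT libraries. The part of all these markers in the members' difference was not tested.

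In the other lists, 26 of 42 replication genes were higher in KLS- than in LT cells and 2 lower, Rrm2b and Pole4. Of 63 mitosis genes 29 were higher and 1 lower. These counts stand beside the 20.8% of all genes called higher and 25.5% called lower. In the transcription control list 5 of 18 were higher (E2f4, E2f8, Mybl2, Myc and Tfdp1) and 4 lower (Rbl2, E2f5, Tfdp2 and E2f7), shares near those of all genes. Rbl2, the pocket protein p130 of quiescent cells, fell by 0.90 on the log2 scale (SE 0.16, adjusted p = 0.00231, limma). Of 14 anaphase-promoting complex genes 2 were higher and 0 lower, which for higher genes is below the share of all genes.

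Between KLS- and ST cells, 2 libraries against 2, 50 of 51 members were higher in KLS- cells and 0 lower, against 18.8% of all genes tested called higher and 21.2% called lower. Pole, the leading-strand polymerase, was the exception (0.89 ± 0.35, adjusted p = 0.0728, limma), with 6.76 RPKM in ST-HSC and 1.51 in ST-CML. Both KLS- libraries lay above both ST libraries in 51 of 51 members, against 30.6% of all genes. The median log2 fold change was 1.81 for mitosis and 1.44 for replication genes.

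Across this span Rrm2 and Birc5 differed most, at 3.01 ± 0.25 (adjusted p = 9.96e-05, limma) and 2.75 ± 0.22 (adjusted p = 7.71e-05, limma). Aurkb followed at 2.59 ± 0.28, from 7.12 and 5.54 RPKM in ST to 43.3 and 42.3 in KLS- libraries. Aurka was at 5.67 and 5.72 RPKM in ST and 29.6 and 46.5 in KLS- libraries (2.51 ± 0.25). Plk1 was at 6.65 and 4.01 RPKM in LT-HSC 1 and 2, 6.62 and 8.48 in LT-CML 1 and 2, 1.74 and 2.17 in ST-HSC and ST-CML, and 10.7 and 19.6 in normal KLS- and CML-KLS- (2.40 ± 0.24). The count was 40 without ST-CML.

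**Figure D4:**
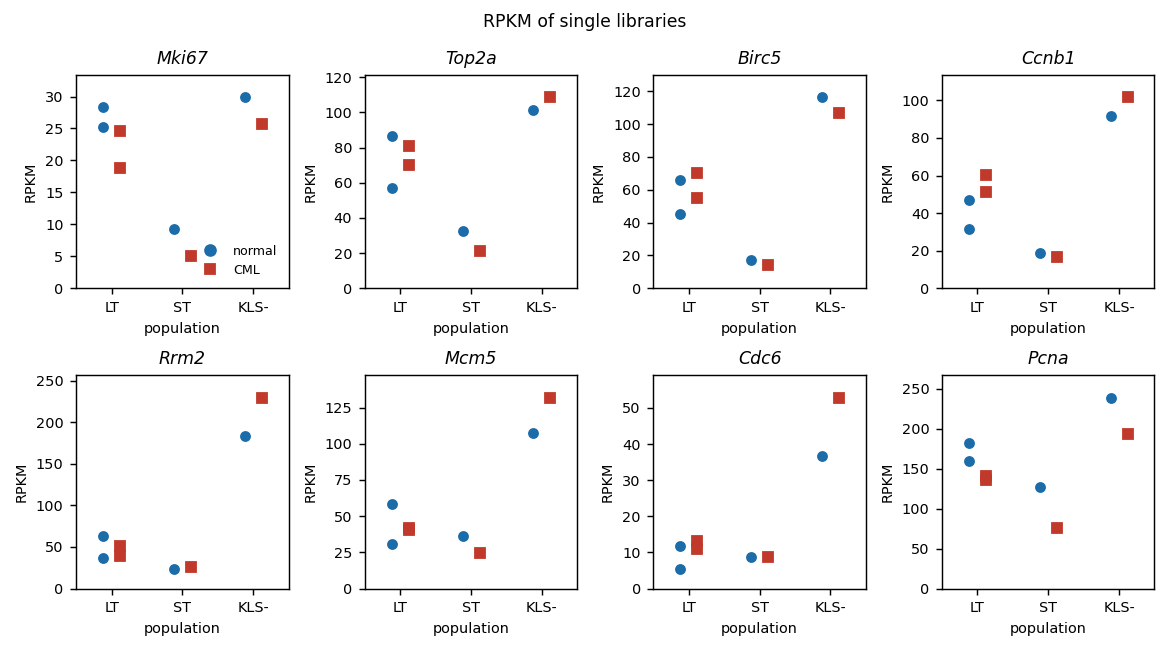
RPKM of 8 members in single libraries by population; blue circles are normal and red squares CML libraries, and each axis starts at 0. Mki67, Top2a, Birc5 and Ccnb1 are lowest in ST cells, and Rrm2, Mcm5 and Cdc6 set KLS- cells far above LT and ST cells.

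The study asked how CML stem cells differ from normal HSCs. For the 51 members no difference between CML and normal cells passed the test with the main settings. Related genes outside the 51, among them Pttg1, which was called, are given below. In LT-CML against LT-HSC cells, 2 libraries against 2, 0 of 51 members were called, against 1.73% of all genes tested, and 1 member, Aurka, had an unadjusted p under 0.05 (limma), against 11.6% of all genes tested. Aurka was at 17.4 and 22.5 RPKM in LT-CML 1 and 2 and 15.1 and 9.58 in LT-HSC 1 and 2 (0.67 ± 0.25, adjusted p = 0.363, limma). The median log2 fold change of the members was -0.01, with a median SE of 0.24. Since Aurka at 0.67 ± 0.25 was not called, the fit could miss differences well above that SE. The lack of calls therefore does not show equal levels.

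By values alone, both LT-CML libraries lay within the range of the LT-HSC libraries in 24 of 51 members, against 16.4% of all genes tested. This held for 14 of 21 replication genes, among them Mcm2 to Mcm7, and 8 of 23 mitosis genes. The LT-HSC range was wide for many members. In 23 of 51, RPKM + 1 was lower in LT-HSC 2 than in LT-HSC 1 by at least 1.5-fold, against 5.04% of all genes tested. The count of 24 therefore does not measure likeness of CML to normal cells. Pooled CML stem cells against pooled HSCs, 3 libraries against 3, gave 0 members called, against 2.34% of all genes tested, and 0 with an unadjusted p under 0.05 (limma), against 12.5%.

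With all 3 populations in the fit and population as a covariate, again 0 members were called between CML and normal cells, against 6.18% of all genes tested. An unadjusted p under 0.05 (limma) was found for 11 of 51 members, about the share in all genes tested, 21.8%. The nearest to the threshold was Pcna (-0.41 ± 0.11, adjusted p = 0.0712, limma), which was called after upper-quartile scaling. Without LT-HSC 2, 3 of 51 members (Pcna, Pola1 and Chek1) were called lower. In that fit 755 of all genes were called, beside 776 (6.18%) with all libraries. These 3 calls therefore do not set the members apart from all genes.

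The change of the disease difference from LT to KLS- or to ST cells was tested as well, with each lone library taken to vary like the LT replicates. It was called in 0 members for KLS- and 0 for ST cells, against 0.0239% of all genes tested in each. At an unadjusted p under 0.05 (limma) there were 0 members for KLS- and 2 for ST cells, against 3.76% and 2.19% of all genes tested. Since both ST and both KLS- arms were 1 library each, these p-values rest on the spread of the LT libraries alone.

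Lone libraries were compared by ratios of RPKM without a test. ST-CML was below ST-HSC in 39 of 51 members, with a median ratio of 0.705, against 7525 of all 12561 genes tested. In 17 members RPKM + 1 was lower by at least 1.5-fold, against 7.17% of all genes tested, and these held 11 of 21 replication genes and 3 of 23 mitosis genes. It was higher by as much in 0 members, against 5.06%. Pole had the lowest ratio, 0.223, while E2f2 had the highest, 1.84, at 0.326 and 0.600 RPKM. The neutrophil and monocyte sum also differed between the ST libraries, at 257 RPKM in ST-HSC and 2169 in ST-CML. Of its genes only Csf1r went the other way, from 1.21 to 0.651 RPKM. The part of these markers in the members' difference was not tested. CML-KLS- and normal KLS- were close, with a median ratio of 0.989. RPKM + 1 was higher by at least 1.5-fold in 3 members, all mitosis genes, against 5.59% of all genes tested, and lower in 1 (Chek1), against 4.71%.

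The normal LT replicates, labelled 2 and 6 months, differed more than the CML replicates. LT-HSC 2 was below LT-HSC 1 in 48 of 51 members, against 7080 of all 12561 genes tested. Ccna2, Cdc20 and E2f1 were the exceptions, and the median ratio of RPKM over the members was 0.665. In 23 members RPKM + 1 was lower by at least 1.5-fold, against 5.04% of all genes tested, and 13 of these were replication genes. It was higher by as much in 0 members, against 4.26%. The ratios were lowest for Cdc6 (0.453), Mcm7 being at 0.603 and Pcna at 0.880. LT-CML 2 against LT-CML 1 had a median ratio of 1.13, with RPKM + 1 higher by at least 1.5-fold in 1 member, against 2.6% of all genes tested, and lower in 0, against 3.86%. The neutrophil and monocyte sum was 6.92 times higher in LT-HSC 2 than in LT-HSC 1 and 11.9 times higher in LT-CML 2 than in LT-CML 1. Age, mouse and library cannot be told apart in these 2 libraries.

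**Figure D5:**
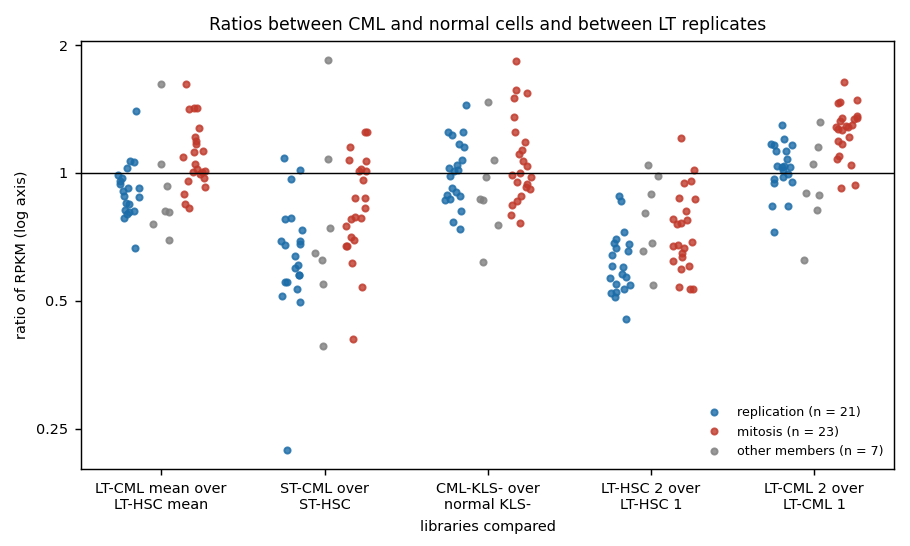
Ratio of RPKM (log axis) of each member between CML and normal cells of LT, ST and KLS- populations, and between the replicates of LT-HSC and LT-CML; blue points are 21 replication genes, red points 23 mitosis genes and grey points 7 other members. LT-HSC 2 lies below LT-HSC 1 for 48 of 51 members, against 7080 of all 12561 genes tested. ST-CML lies below ST-HSC for 39 of 51 members, against 7525 of all 12561 genes tested.

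Of the related lists, 1 gene of the 63 in the mitosis list was called between LT-CML and LT-HSC cells, near the 1.73% of all genes. Pttg1, securin, which holds separase until anaphase, was at 101 and 109.8 RPKM in LT-CML 1 and 2 and 38.7 and 50.3 in LT-HSC 1 and 2 (1.24 ± 0.20, adjusted p = 0.0306, limma). It was at 40.4 and 59.7 RPKM in ST-HSC and ST-CML and at 40.7 and 173 in normal KLS- and CML-KLS-, so that CML was higher in each population. With population as a covariate Pttg1 was again higher (adjusted p = 0.00885, limma), and Cenpk, a kinetochore protein (-0.67 ± 0.15), and Anapc13, a subunit of the anaphase-promoting complex (-0.46 ± 0.09), were lower in CML. None of these lists had another gene called in either comparison. Calls with the covariate were thus 2 of 63 mitosis, 1 of 14 anaphase-promoting complex, 0 of 42 replication and 0 of 18 transcription control genes. For all genes the share was 6.18%.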

How the data were processed

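Cells were sorted from bone marrow, and RNA was amplified with the SMARTer ultra low input kit from oligo-dT primers and sequenced as 100-base paired-end reads. The authors mapped reads to mm9 and deposited RPKM per gene for each library; the annotation and counting rule are not given in the sources used here. RPKM are not counts. Depth was estimated from the whole-read steps of low RPKM values and GENCODE M1 exon lengths, and 85.5% of 4110 low genes gave whole steps within 0.03 reads. Oligo-dT priming and amplification can distort levels between genes, so each gene was compared between libraries.

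Values were taken as log2(RPKM + 1), and 12561 of 20207 genes with a total above 1 RPKM were kept. Differences were tested with limma 3.58.1 (R 4.3.3, empirical Bayes with a trend, two-sided) and adjusted by Benjamini-Hochberg over all genes kept, at a threshold of 0.05. Population comparisons had disease as a covariate and the overall CML comparison had population (4 residual degrees of freedom). LT-CML against LT-HSC and the differences between populations used means of 6 groups (2 residual degrees of freedom). CML stem cells (LT and ST) were compared with HSCs without a covariate. The procedure was tested on simulated data. Ratios of single libraries were given without a test, and fits with 1 library in a group took it to vary like the replicated groups. Genes named with all 8 values were Mki67, Top2a, in each other role group the 2 members with the highest mean RPKM, and up to 5 members per direction with the largest called differences in each comparison; members opposite to their role group in KLS- against LT and up to 2 genes per list called in LT-CML against LT-HSC were also named. Other genes named were chosen after their values were seen. The members, lists and naming rule were chosen with earlier results of these data known. Older gene names were matched through RefSeq synonyms. Alternatives were other pseudocounts, filters and scalings, a fit without trend, and leaving out each library. Figures were drawn with matplotlib 3.10.9 in Python 3.11.15.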

Additional observations from a re-analysis of the deposited data

How the results depend on the processing

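Limits: ST and KLS- cells had 1 library per disease state, so their tests borrow the spread of other libraries, and depth limited the rarest members to a counting error of 18.3%. No paired analysis was possible because the normal libraries share no replicate numbers with the CML libraries in the labels.

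Without the filter on low values, the number of genes called changed from 217 to 0 for LT-CML against LT-HSC, from 294 to 173 for CML stem cells against HSCs, from 776 to 231 for CML against normal with population as a covariate and from 612 to 127 for ST against LT, with members called in the last falling from 29 to 8. With population as a covariate the 294 became 543. Upper-quartile scaling gave 1 member for CML against normal in place of 0. In normal populations alone, chosen after seeing the data, 74 genes and 1 member were called for ST against LT, 2314 and 15 for KLS- against LT (5823 and 32 in all), and 1359 and 29 for KLS- against ST (5021 and 50 in all). In CML populations alone the counts were 55 and 4, 2158 and 13, and 2085 and 44. In these fits the ST and KLS- groups were 1 library each, assumed to vary like the LT replicates. The disease difference in KLS- minus that in LT was called for 3 genes, and for 0 with a pseudocount of 0.1, 0 with 0.5, 59 without the filter, 1 with a mean of at least 1 RPKM, 0 after quantile normalization and 0 after upper-quartile scaling. That in ST minus LT was called for 3 genes, and for 0 with a pseudocount of 0.1, 407 without the filter and 5 with a mean of at least 1 RPKM.

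Leaving out each library in turn gave 6 to 225 genes and 0 members for LT-CML against LT-HSC, 115 to 217 and 0 for CML stem cells against HSCs, 320 to 755 and 0 to 3 for CML against normal, 110 to 718 and 5 to 36 for ST against LT, 2879 to 5574 and 18 to 33 for KLS- against LT, 2511 to 5586 and 40 to 50 for KLS- against ST, and 0 to 3 and 0 for both differences between populations.

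Among the named genes rerun (Mki67 and Top2a in all 8 comparisons and the other leading genes in the population comparison that named them), direction turned for Mki67 and Top2a, in comparisons where neither was called. Top2a was at -0.20 without LT-HSC 2 and -0.0045 without LT-CML 2 in LT-CML against LT-HSC, 0.19 without LT-HSC 1 and 0.46 without ST-CML in CML stem cells against HSCs, and 0.0078 without LT-HSC 1 and 0.098 without ST-HSC or ST-CML in CML against normal. Mki67 was at 0.18 without ST-CML in CML stem cells against HSCs and -0.018 after quantile normalization in KLS- against LT. For the disease difference in KLS- minus that in LT, Mki67 was at -0.088 without LT-CML 1, and Top2a at -0.0012 after quantile normalization, -0.011 after upper-quartile scaling, -0.30 without LT-HSC 1 and -0.098 without LT-CML 1. Over the libraries left out, the ranges reached 0.40 for Top2a in LT-CML against LT-HSC, -0.94 for Mki67 and -0.50 for Top2a in CML stem cells against HSCs, -0.23 for Top2a in CML against normal, and 0.29 for Mki67 and 0.30 for Top2a in the last difference. The causes were not tested.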
